A study of Mus musculus with 15 samples.

Results

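The arrays described here are the 9 that cover the earliest sampled times without oncogenic NRAS in a mouse acute myeloid leukemia: 4 RAS-OFF arrays, 2 taken at 48 h and 2 at 60 h after the start of doxycycline, and 5 RAS-ON arrays at 0 h. They were chosen by the time in their titles from a series of 15 arrays, whose other 6, at 72, 84 and 96 h, enter only where the early arrays are set against the rest of the time course. All 15 came from NRASG12V/Mll-AF9 leukemia, which carries the Mll-AF9 fusion gene and an oncogenic NRAS that doxycycline switches off. The RAS-ON mice received vehicle, and the RAS-OFF mice received doxycycline by intraperitoneal injection at time 0 and in their drinking water until sacrifice. All hosts were SCID/Beige mice, which lack functional T and B cells and have impaired natural killer cells; 20 days after leukemia cells were injected into the tail vein, white cell counts exceeded 100000 per microlitre. RNA came from leukemia cells taken from the spleen, and 18193 genes were measured on Affymetrix arrays. No vehicle-treated mice at 48 or 60 h are among the samples, so loss of NRAS, doxycycline itself and elapsed time cannot be told apart. The labels give neither the promoter of the transgene nor whether the arrays of a group came from different animals, and the p-values therefore rest on a spread between arrays that may in part be technical.

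RAS proteins are molecular switches that, bound to GTP, pass growth factor signals to the RAF, MEK and ERK kinases and to PI3K. ERK rapidly induces a small set of transcripts, many of which encode its own inhibitors, and PI3K keeps the FOXO transcription factors out of the nucleus. MLL-AF9 is a chimeric transcription regulator that holds blood progenitors in a self-renewing state through genes such as the HOXA cluster and Meis1, and NRAS mutations are common partners of MLL rearrangements in myeloid leukemia.

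Median intensities ran from 149.99 to 156.25. The processing set the arrays to a common distribution, so these medians do not measure array quality. The Gapdh controls, whose 3-prime signal exceeds the 5-prime signal more as RNA degrades, differed by 0.14 to 0.35 on the log2 scale. The SD of the log2 difference between arrays was 0.127 to 0.221 over the 6 pairs of early arrays, 0.166 to 0.302 over the 10 RAS-ON pairs and 0.391 to 0.457 over the 20 pairs that cross the groups. RAS-ON replicates 1 to 3 and replicates 4 and 5 stood apart from each other, with an SD of 0.236 to 0.302 between the sets against 0.166 to 0.219 within the first and 0.169 within the second. Where a call was lost or a value moved over 1.5 times with 1 of these sets, this is given beside most results. Counts of list members that stayed below 5 were not followed in this way, and some of them moved over 1.5 times.

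In the early arrays 2667 genes (14.7% of 18193) were higher and 3170 (17.4%) lower than in RAS-ON at an adjusted p below 0.05 by limma, 5837 (32.1%) in all. "Rose" and "fell" below refer to genes that passed this test, and changes are on the log2 scale, where 1 unit is a 2-fold change, with the standard error of the fit. Most changes were small, with a median over all genes of -0.046. Among the genes that changed by at least 1 unit, rises outnumbered falls, at 360 against 156. The values of the 4 early arrays lay entirely above those of the 5 RAS-ON arrays for 2385 genes (13.1%) and entirely below for 2823 (15.5%). Leaving out RAS-OFF 60 h replicate 1 reduced the falls to 1924.

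Few differences could be seen between the 48 h and 60 h arrays. Against RAS-ON, 2244 genes (12.3%) were higher and 2007 (11%) lower at 48 h, and 1850 (10.2%) were higher and 2216 (12.2%) lower at 60 h. Directly compared, 60 h and 48 h differed in 0 of 18193 genes (0%) by limma, the smallest adjusted p being 0.995. An unadjusted p below 0.05 was found for 713 genes, fewer than the share of 0.05 that would pass if no gene differed. Without RAS-OFF 48 h replicate 2, 1 gene was called lower at 60 h. With 2 arrays against 2, this limits how small a difference could have been seen and does not show that the times were alike. The counts against RAS-ON at a single time depended on its 2 arrays: without 48 h replicate 1 or 2, respectively, 1392 and 1373 genes were higher and 1043 and 819 lower at 48 h, and without 60 h replicate 1 or 2, 954 and 1098 were higher and 806 and 1186 lower at 60 h.

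Genes were read in 32 lists by function or cell type, and the plot of list medians by array gives each list's position on every array. For each list the number of members that passed the test is given beside the 14.7% of all genes that rose and the 17.4% that fell. Members beyond those with the largest change in a list are named after their values were seen.

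**Figure D1:**
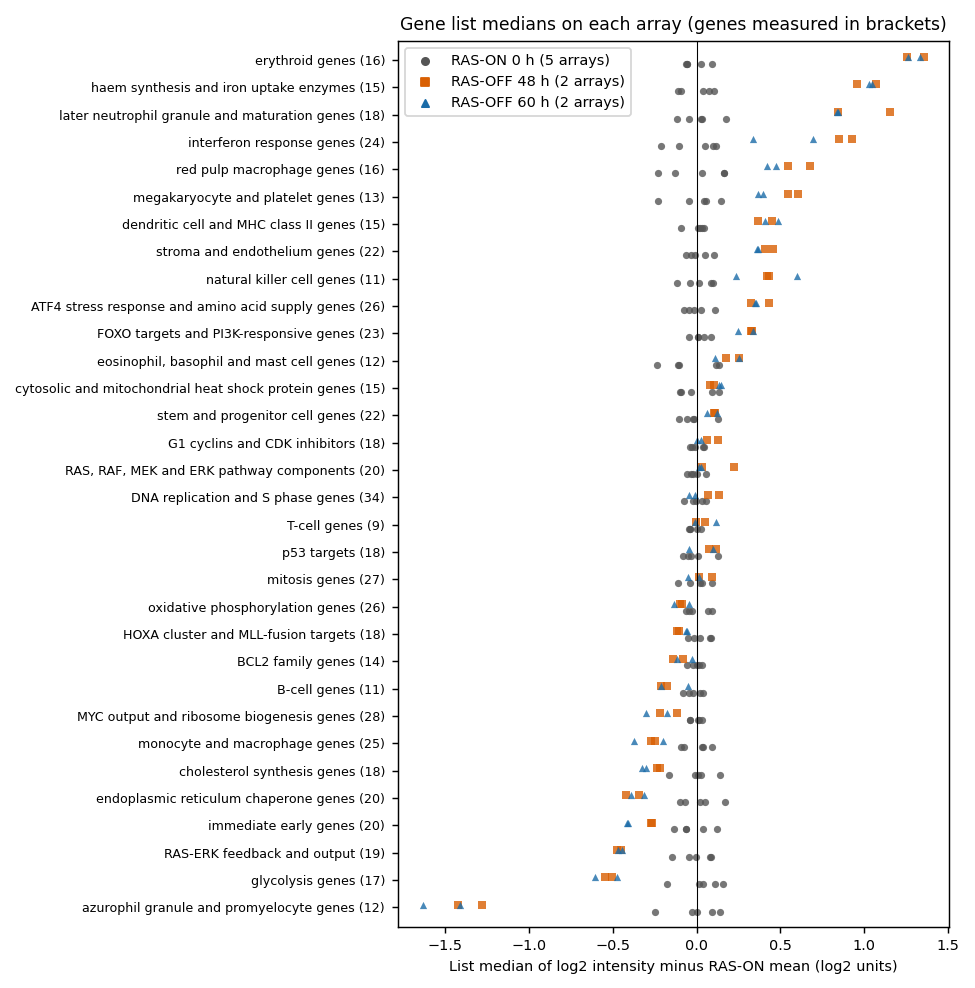
Median over the measured genes of each of 32 lists of log2 intensity minus the RAS-ON mean (x axis, log2 units), 1 point per array, with the number of genes measured in brackets. Circles are the 5 RAS-ON arrays, squares the 2 arrays at 48 h and triangles the 2 at 60 h; all 4 early arrays lay above the RAS-ON range for erythroid genes (1.25 to 1.36) and below it for azurophil granule genes (-1.63 to -1.28), while DNA replication and mitosis genes overlapped it.

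Transcripts that report ERK activity were lower within 48 to 60 h. Among the 19 measured RAS-ERK feedback inhibitors and outputs, 11 (57.9%) fell, against 17.4% of all genes, 1 rose and 7 did not pass the test, and the list median was -0.43. Etv5, an ETS-family factor downstream of ERK, had log2 intensities of 9.66, 10.04, 9.92, 9.52 and 9.67 on the RAS-ON arrays, 7.88 and 7.96 at 48 h and 7.62 and 7.72 at 60 h. The groups were separated by more than 1.5 units, with the 60 h arrays lowest. Etv5 fell by 1.97 ± 0.10 (SE; limma adjusted p = 3.85e-07), or 3.91-fold, and by 1.26 as the mean of its probe sets. Ccnd1, which encodes cyclin D1 and links growth factor signals to G1 progression, read 11.98, 12.24, 12.19, 11.25 and 11.51 in RAS-ON, 10.84 and 10.91 at 48 h and 10.80 and 10.57 at 60 h. Its early values were the lowest of the 9, but the RAS-ON arrays split, replicates 4 and 5 lying nearer to the early arrays. Ccnd1 fell by 1.05 ± 0.19 (SE; limma adjusted p = 0.00145), by 1.36 against RAS-ON replicates 1 to 3 and by 0.60 against replicates 4 and 5. Epha2, an ephrin receptor, behaved likewise, with falls of 1.34 ± 0.25 (SE) against all RAS-ON arrays, 1.72 against replicates 1 to 3 and 0.77 against replicates 4 and 5. Dusp6, the phosphatase that removes activating phosphates from ERK, went from 11.93 ± 0.25 (SD, n = 5) to 11.14 ± 0.10 (SD, n = 4), a fall of 0.78 ± 0.12 (SE). The fallers also held the phosphatases Dusp5 and Dusp7, the inhibitors Spred1 and Spred2, Etv4 and Fosl1, with changes between -0.99 and -0.43, while the Sprouty genes Spry1, Spry2 and Spry4, also ERK feedback inhibitors, had changes of 0.18, -0.03 and -0.11 that did not pass. Phlda1 was the riser, by 0.64.

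The immediate early genes, which respond to growth factors without new protein synthesis, divided. Of 20 measured, 8 (40%) fell and 4 (20%) rose, with a median of -0.40. Fos, a subunit of the AP-1 transcription factor, had values of 10.59, 10.28, 11.09, 10.66 and 10.66 in RAS-ON, 8.88 and 8.85 at 48 h and 8.83 and 8.70 at 60 h. The 4 early values were tightly bunched and well below every RAS-ON value. Fos fell by 1.84 ± 0.13 (SE; limma adjusted p = 2.68e-06), Egr1, a zinc finger factor driven by the ERK substrate ELK1, by 1.67 ± 0.16, and Klf4, a zinc finger factor that also promotes monocyte differentiation, by 1.61 ± 0.16. Jun, Nr4a1, Ier2, Srf and Ier3 were the other fallers. The 4 risers were Btg2, an antiproliferative gene that p53 also induces (1.29 ± 0.14, SE), Ier5 (0.66), Klf6 (0.42) and Klf2 (0.38). Against RAS-ON replicates 4 and 5 alone the median of this list was -0.22.

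Nras itself did not pass the test. Its log2 intensities were 10.72, 10.90, 10.86, 11.02 and 11.19 in RAS-ON, 10.96 and 10.61 at 48 h and 10.64 and 10.72 at 60 h. The groups overlapped, and 1 of the 48 h arrays lay above the RAS-ON mean of 10.94. The difference was -0.20 ± 0.10 (SE; limma adjusted p = 0.161); it was -0.37 (adjusted p = 0.0253) against RAS-ON replicates 4 and 5 and -0.09 (adjusted p = 0.487) against replicates 1 to 3. The labels do not say whether the probe sets for the mouse gene read the transgene, so these values do not measure how far the transgene was switched off. Of the 20 measured components of the pathway that carries the signal, 5 (25%) rose and 3 (15%) fell. The risers were the exchange factors that load RAS with GTP, Sos1 (0.67 ± 0.20, SE), Sos2 (0.45 ± 0.10) and Rasgrp1 (0.48 ± 0.08), with Rras2 and Braf, and the fallers were the adaptor Grb2, the kinase Map2k1 and the GTPase-activating Rasa2. The Sos1 and Rasgrp1 calls held for their brightest probe set and were lost when all probe sets of the gene were averaged (0.10 and 0.11). Sos1 rose by 0.40 against RAS-ON replicates 1 to 3 and 1.07 against replicates 4 and 5, Sos2 by 0.25 against replicates 4 and 5, and the Sos1 call was also lost without any of the 4 early arrays (adjusted p between 0.0532 and 0.0879).

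**Figure D2:**
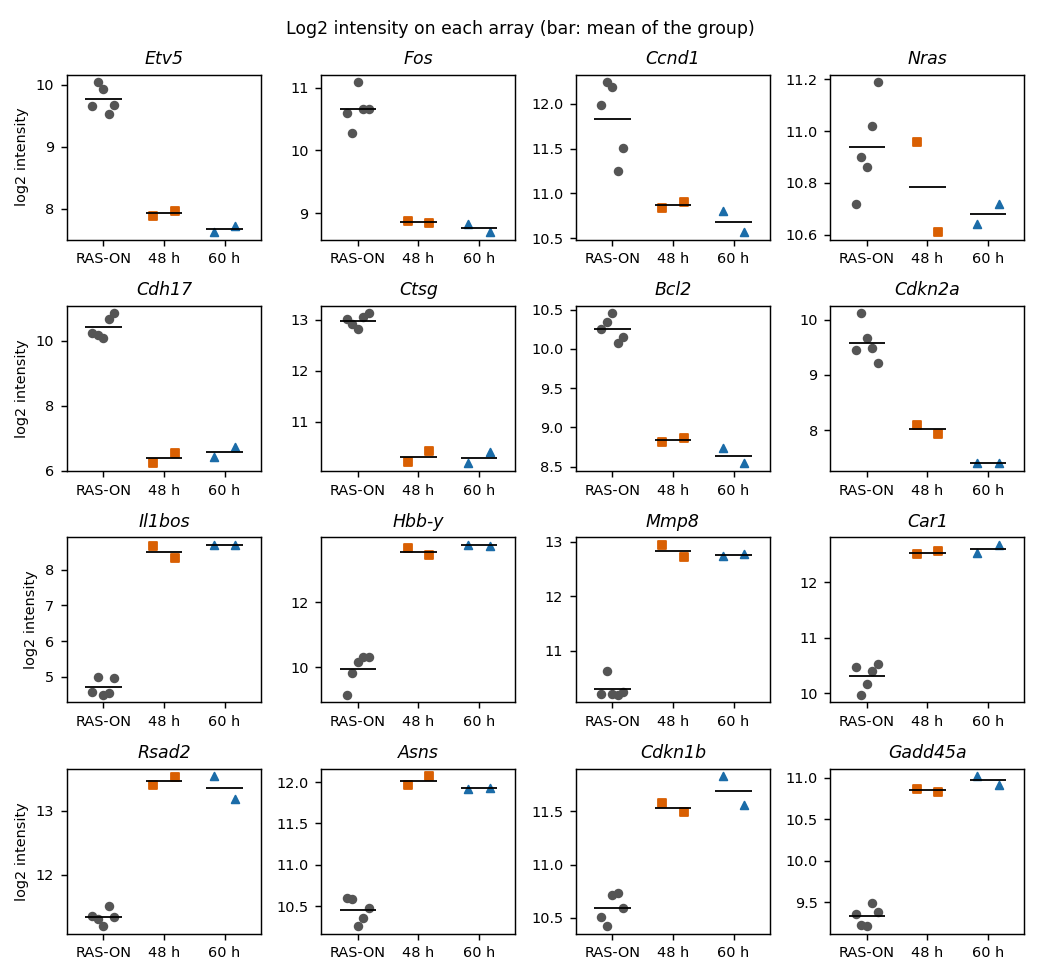
Log2 intensity (y axis) of 16 genes on each of the 9 arrays, grouped as RAS-ON (5 circles), 48 h (2 squares) and 60 h (2 triangles), with a bar at the mean of each group. The early values of all genes shown except Nras lay outside the RAS-ON range; Cdh17 and Il1bos were separated by more than 3 units.

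The genes with the largest changes came from many different cell programmes. Il1bos, a noncoding transcript from the strand opposite Il1b, read 4.57, 4.98, 4.49, 4.54 and 4.97 in RAS-ON, 8.66 and 8.32 at 48 h and 8.70 at both 60 h arrays. It went from below the array median to above the array median on all 4 early arrays, a rise of 3.88 ± 0.12 (SE; limma adjusted p = 4.11e-08). Il1b, the cytokine gene on the other strand, rose by 1.54 ± 0.15 (SE). Hbb-y, an embryonic beta-globin, had values of 9.15, 9.82, 10.17, 10.30 and 10.31 in RAS-ON, 13.65 and 13.45 at 48 h and 13.76 and 13.73 at 60 h. All 4 early arrays were over 3 units above the highest RAS-ON array, and Hbb-y rose by 3.70 ± 0.21 (SE), with all 3 of its probe sets called higher. Globin genes are near copies of each other, so which of them the probes read is uncertain. The next rises were the Ly49-family receptor gene Klra17 (2.54), the collagenase Mmp8 of neutrophil granules (2.49), the gamma-delta T-cell receptor segment Trgv4 (2.34), the interferon-induced Oasl2 (2.31), the chemokine receptor Cxcr2 (2.27), the erythroid carbonic anhydrase Car1 (2.27) and the centrosomal Ninl (2.20). The Trgv4 change was 1.45 as the mean of its probe sets, and Ly49 receptors are likewise near copies. Prokr1, a G-protein-coupled receptor, rose by 2.56 with the probe set that was brightest over all 15 arrays, whereas the set that was brightest over the 9 arrays changed by -0.17 (adjusted p = 0.121).

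Among the largest falls were cell adhesion genes. Cdh17, which encodes a cadherin best known from intestine and B cells, read 10.26, 10.19, 10.09, 10.69 and 10.85 in RAS-ON, 6.22 and 6.54 at 48 h and 6.42 and 6.72 at 60 h. The drop of 3.94 ± 0.16 (SE; limma adjusted p = 8.82e-08), 15.4-fold, was the largest among the called genes that did not overlap. Provisional gene symbols, and symbols of C, D or E plus a digit, were left out of this ranking. Cdh1, E-cadherin, fell by 3.15 ± 0.23 (SE), from 8.83 ± 0.55 (SD, n = 5) to 5.68 ± 0.10 (SD, n = 4). Gem, a RAS-related GTPase of the RGK family that restrains calcium channels, fell by 3.83 ± 0.20 (SE), from 10.33 ± 0.47 (SD, n = 5) to 6.50 ± 0.23 (SD, n = 4). The others were Dmkn (-2.93), Tctex1d1 (-2.85), the eosinophil ribonuclease gene Rnase2a (-2.79), the arginine-degrading Arg1 (-2.77), Sgip1 (-2.76, or -1.24 as the mean of its probe sets), cathepsin G, Ctsg (-2.67) and Bex6 (-2.55). Arg1 varied among the RAS-ON arrays, from 6.25 to 8.41, and was dim in all early samples, between 4.72 and 4.79.

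Genes tied to MLL-AF9 and to self-renewal did not share a direction. Of 18 measured HOXA cluster genes and MLL-fusion targets, 5 (27.8%) fell and 3 (16.7%) rose, against 17.4% and 14.7% of all genes. The other 10 did not pass, and the list median was -0.10, or -0.04 as the mean of all probe sets. Hoxa9 and Meis1, the pair most closely tied to MLL fusions, differed by -0.22 ± 0.13 (SE; adjusted p = 0.224) and 0.21 ± 0.17 (SE; adjusted p = 0.396), with overlapping groups. Both rested on which RAS-ON arrays were used: against replicates 4 and 5 alone the differences were -0.43 (adjusted p = 0.00443) and 0.60 (adjusted p = 0.0047), and against replicates 1 to 3 alone they were -0.08 (adjusted p = 0.655) and -0.05 (adjusted p = 0.69). Leaving out RAS-ON replicate 2 gave Hoxa9 a difference of -0.32 (adjusted p = 0.038), and leaving out replicate 4 gave Meis1 a difference of 0.05. Mef2c, a transcription factor of MLL-rearranged leukemia stem cells, fell by 1.23 ± 0.09 (SE) and all 5 of its probe sets were called lower. Cdk6, the G1 kinase, fell by 0.81 ± 0.11, and Myb, a transcription factor that MLL-AF9 leukemias depend on, by 0.66 ± 0.09. Myb read 11.69, 11.84, 11.62, 11.48 and 11.66 in RAS-ON, 11.05 and 11.09 at 48 h and 10.75 and 11.10 at 60 h. Every early value was below every RAS-ON value, and the limma adjusted p was 0.00025. Hoxa7 and Hoxa5 fell, and Mecom (1.13 ± 0.21, SE), Pbx3 (0.67) and Hoxa10 (0.61) rose. The Mecom change was 0.38 when its 3 probe sets were averaged, 0.61 against RAS-ON replicates 4 and 5 and 1.48 against replicates 1 to 3.

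Among 22 stem and progenitor cell genes, 8 (36.4%) rose and 7 (31.8%) fell. Kit, which encodes the receptor for stem cell factor, rose by 0.54 ± 0.14 (SE; limma adjusted p = 0.0128), from 9.62 ± 0.32 (SD, n = 5) to 10.16 ± 0.04 (SD, n = 4), and Flt3, another receptor kinase of early progenitors, rose by 0.88 ± 0.16. Kit rose by 0.32 and Flt3 by 0.52 against RAS-ON replicates 4 and 5, and by 0.70 and 1.13 against replicates 1 to 3. Tal1 and Gfi1b, which direct erythroid and megakaryocytic fates, rose by 1.20 ± 0.14 (SE) and 1.03. Cd34, a surface marker of progenitors, fell by 1.80 ± 0.15 (SE), and Gfi1, a repressor needed for granulocyte development, by 1.12 ± 0.12. Myc, the growth regulator downstream of ERK, differed by -0.28 ± 0.13 (SE; adjusted p = 0.138) with overlapping groups; it was -0.40 (adjusted p = 0.00693) against RAS-ON replicates 1 to 3, and without RAS-ON replicate 4 (adjusted p = 0.00422), and -0.11 (adjusted p = 0.626) against replicates 4 and 5. It also passed with array weights (-0.31, adjusted p = 0.0488) and with the replicate block (-0.36, adjusted p = 0.0175).

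The myeloid programme divided by maturation stage. Of 12 azurophil granule and promyelocyte genes, which are made early in granulocyte development, 10 (83.3%) fell and the other 2 did not pass, with a median of -1.47. Ctsg, a serine protease of these granules, read 13.01, 12.91, 12.81, 13.05 and 13.12 in RAS-ON, 10.22 and 10.43 at 48 h and 10.19 and 10.41 at 60 h. This gene of very high signal fell by 2.67 ± 0.08 (SE), 6.35-fold, with no overlap. Cst7 fell by 2.17 ± 0.10 and Gstm1 by 1.96 ± 0.08, and the neutrophil serine proteases Prtn3 and Elane and the peroxidase Mpo fell by 1.84, 1.70 and 1.27. In contrast, of 18 later neutrophil granule and maturation genes 14 (77.8%) rose and 4 did not pass, with a median of 0.91. Mmp8 read 10.20, 10.63, 10.21, 10.19 and 10.25 in RAS-ON, 12.94 and 12.71 at 48 h and 12.73 and 12.77 at 60 h. It rose by 2.49 ± 0.10 (SE; limma adjusted p = 8.82e-08). Cxcr2, the receptor that draws mature neutrophils from the marrow, went from 8.50 ± 0.28 (SD, n = 5) to 10.77 ± 0.10 (SD, n = 4), and Mmp9, Fpr2, Itgb2l and Padi4 rose by 1.52, 1.28, 1.19 and 1.12. S100a8, S100a9 and Ngp, which were already abundant, had changes of 0.12, 0.13 and 0.18 that did not pass.

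Monocyte and macrophage genes fell more often than they rose: 11 of 25 (44%) fell and 3 (12%) rose, with a median of -0.24. Against RAS-ON replicates 1 to 3 the median was -0.39, with 14 falls, against replicates 4 and 5 it was -0.18, and without RAS-ON replicate 3 it was -0.16. The largest falls were Ccl2, a chemokine that recruits monocytes (-2.25 ± 0.19, SE), F13a1, the A subunit of coagulation factor XIII in monocytes (-2.10 ± 0.07), and the chemokine Ccl9 (-1.95 ± 0.07). Ms4a6d and Ms4a6c, near copies whose probes may read each other, fell by 1.65 and 1.15, and Ccl3 and Cx3cr1 by 1.43 and 0.98, while the lineage markers Csf1r, Itgam and Lyz2 had changes of -0.10, 0.10 and 0.12 that did not pass. The risers were Tlr4, Clec4a2 and Fcgr1. Among 12 eosinophil, basophil and mast cell genes, 3 (25%) rose: Prg2, Hdc and Gata1, which is also a transcription factor of red cell development. Mcpt8, a basophil protease, fell by 2.23 ± 0.34 (SE). Prg2, which encodes eosinophil major basic protein, spanned 10.19 to 12.33 on the RAS-ON arrays and 12.31 to 12.87 on the early arrays. Its rise of 1.44 ± 0.43 (SE; adjusted p = 0.0252) was lost against RAS-ON replicates 4 and 5 (0.35, adjusted p = 0.0758, against 2.17 for replicates 1 to 3) and without RAS-ON replicate 1 or 2 or any early array (adjusted p between 0.0531 and 0.0913). The list had 5 risers without RAS-ON replicate 4 and against RAS-ON replicates 1 to 3.

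The erythroid list had the highest median of the 32. Of 16 measured erythroid genes 14 (87.5%) rose and 2 did not pass, with a median of 1.27, and the early arrays lay at 1.25 to 1.36 against -0.07 to 0.09 for the RAS-ON arrays. Car1 read 10.47, 9.97, 10.17, 10.41 and 10.52 in RAS-ON, 12.51 and 12.57 at 48 h and 12.54 and 12.68 at 60 h. The early arrays varied by less than 0.2 units, and Car1 rose by 2.27 ± 0.11 (SE; limma adjusted p = 2.87e-07). The membrane skeleton genes Epb42 and Add2 rose by 2.10 ± 0.15 and 1.66 ± 0.07, and Klf1 and Gata1, the transcription factors of red cell development, by 1.56 and 1.42. The alpha-globins Hba-a1 and Hba-a2, whose probe sets were dim at early means of 6.06 and 6.51, had changes of 0.02 and 0.00 that did not pass. Probe sets that name several genes were left out, so any set shared by these near copies is not seen here. These values therefore do not show that alpha-globin was unchanged. Of 15 genes for haem synthesis and iron uptake, 14 (93.3%) rose, with a median of 1.01. They span the pathway from Alas2, its erythroid entry enzyme (1.25 ± 0.10, SE), through Uros (1.38 ± 0.14, or 0.83 as the mean of its probe sets) to Fech, which inserts the iron (1.01), with the transferrin receptor Tfrc (1.24) and the mitochondrial transporter Abcb10 (1.38 ± 0.07). The gene that fell was Alas1, the form of the entry enzyme used outside the erythroid lineage, by 0.79.

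Genes typical of other cells of the spleen rose as well. In bulk RNA, a change in the number of cells of a type and a change in RNA per cell cannot be told apart. The share of leukemic cells in each sample was not measured. The median over 16 red pulp macrophage genes, of which 10 (62.5%) rose and 2 (12.5%) fell, was 0.54, or 0.31 against RAS-ON replicates 4 and 5. Timd4, a receptor for apoptotic cells, rose by 1.22 ± 0.09 (SE), the adhesion molecule Vcam1 by 1.07 ± 0.14, and Slc40a1, the iron exporter ferroportin, by 1.02 ± 0.08. Hmox1, which breaks down haem, and the scavenger receptor Marco fell by 0.49 and 0.31. Of 13 megakaryocyte and platelet genes 11 (84.6%) rose and 2 did not pass, the largest being the transcription factor Nfe2 (0.82 ± 0.08, SE), Thbs1 (0.67 ± 0.13) and von Willebrand factor, Vwf (0.61 ± 0.07). Stroma and endothelium genes had a median of 0.42, and 15 of 22 (68.2%) rose while 4 (18.2%) fell. Cxcl12, the stromal chemokine that retains progenitors, went from 9.99 ± 0.12 (SD, n = 5) to 11.60 ± 0.12 (SD, n = 4), a rise of 1.61 ± 0.07 (SE) that was 0.94 as the mean of its 3 probe sets. Stab2 and Pdgfra, of sinus endothelium and fibroblasts, rose by 1.09 and 0.89, Pdgfra by 0.34 as the mean of its probe sets and 0.59 against RAS-ON replicates 4 and 5, and Stab1, Pecam1, Acta2 and Vim fell.

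Short panels of defining marker genes for these cell types and others gave the following summed intensities. The 7 measured erythroid markers all rose, and their summed intensity went from 17911 to 22601 on the RAS-ON arrays to 47513 to 48875 on the early arrays. All 8 red pulp macrophage markers rose (8564 to 11638 in RAS-ON, 16570 to 19316 early), as did all 6 megakaryocyte markers (15091 to 19267, then 22221 to 25705). Of 8 stromal and endothelial markers 6 rose and Pecam1 fell (10592 to 11422, then 13281 to 15789), and 3 of 4 neutrophil markers rose (46602 to 58562, then 73618 to 78107). For these panels the ranges did not overlap. The 7 myeloid leukemia markers summed to 33216 to 34472 in RAS-ON and 25444 to 27644 in the early arrays. Of them only Mpo, which is also an azurophil granule gene, fell, from a mean of 13.90 to 12.64. Kit and the leukocyte antigen Ptprc rose, and Itgam, Hoxa9, Meis1 and Csf1r did not pass. The median change of the panel was 0.10. The lower sum thus rests on Mpo and does not measure the share of leukemic cells. How far cells of these types took part in the changes of the other lists was not tested.

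Lymphoid genes gave a mixed picture in hosts that lack most lymphocytes. The 11 natural killer cell genes, of which 6 (54.5%) rose and 1 (9.09%) fell, had a median of 0.36, or 0.27 against RAS-ON replicates 4 and 5 and 0.53 against replicates 1 to 3. Gzma, a granule protease, rose by 1.27 ± 0.14 (SE), the activating receptor Ncr1 by 0.92 ± 0.11 and the transcription factor Tbx21 by 0.82 ± 0.10, while Nkg7, which is also in the azurophil list, fell by 0.61. Of 11 B-cell genes 4 (36.4%) fell and 1 rose. The fallers were Cd79b (-1.23 ± 0.17, SE), Ighm (-1.07 ± 0.15), Pax5 (-0.28) and Cd22 (-0.27), the riser the dim Fcrla, and the defining markers Cd79a and Pax5 lay below the array median on all 9 arrays. Ighm had 11 probe sets, of which 1 was called, and their mean changed by -0.21. Of 9 T-cell genes 2 (22.2%) rose, Cd3d (1.59 ± 0.14, SE) and Cd2 (0.73), and 1 (11.1%) fell, Cd5. Cd2 was dim, below the array median on all 9 arrays. Cd3e and Cd3g, the partners of Cd3d in the receptor complex, had changes of 0.00 and 0.03 that did not pass. Of 15 dendritic cell and MHC class II genes 11 (73.3%) rose and 4 did not pass, with a median of 0.42. Cd209a, a lectin of monocyte-derived dendritic cells, rose by 1.04 ± 0.23 (SE), Ly75 by 0.86 ± 0.12 and the chemokine receptor Xcr1 by 0.84, and the class II genes H2-Aa, H2-Ab1 and H2-Eb1 rose by 0.25, 0.32 and 0.42. H2 genes are similar in sequence, so their values may share signal. Over the marker panels, 2 of 3 natural killer markers rose (summed intensity 822 to 1060 in RAS-ON, 1580 to 2213 early). Of 3 T-cell markers Cd3d alone rose (644 to 900, then 1613 to 1765, with Cd3g below the array median throughout). Cd3e and Cd3g did not pass, so the higher T-cell sum rests on Cd3d. Of 3 B-cell markers 1 fell (384 to 421, then 365 to 382), and 2 of 3 dendritic markers rose (736 to 1680, then 1610 to 2186).

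Cell cycle genes did not move as a block at 48 to 60 h. Of 34 DNA replication and S phase genes 8 (23.5%) rose, 5 (14.7%) fell and 21 did not pass, with a median of 0.03 whose sign differed between alternatives (-0.03 as the mean of all probe sets). The falls among them were reduced to 1 without 48 h replicate 2 or 60 h replicate 1, and to 3 without 48 h replicate 1, 60 h replicate 2, RAS-ON replicate 1 or RAS-ON replicate 2. Against RAS-ON replicates 1 to 3 the falls also numbered 3. Ccne2, Ccne1 and E2f2, which act at the entry to S phase, rose by 0.77 ± 0.11, 0.50 ± 0.08 and 0.62 ± 0.10 (SE). Among the 27 mitosis genes, 4 (14.8%) of which rose and 5 (18.5%) fell, the median was 0.01, also of either sign between alternatives (-0.01 with each array centred on its median). Aurkb and Foxm1 fell by 0.44 and 0.41, and Nusap1 rose by 0.43, or 0.25 as the mean of its probe sets. Against RAS-ON replicates 1 to 3, 7 mitosis genes rose. Of 18 G1 cyclins and CDK inhibitors 6 (33.3%) rose and 7 (38.9%) fell. Cdkn1b, which encodes the inhibitor p27 and is a FOXO target, read 10.51, 10.42, 10.71, 10.73 and 10.59 in RAS-ON, 11.58 and 11.49 at 48 h and 11.83 and 11.56 at 60 h. All early values were above all RAS-ON values, and Cdkn1b rose by 1.02 ± 0.09 (SE; limma adjusted p = 7.96e-06). Cdkn2a, which encodes p16 and p19ARF and is induced by oncogenic RAS, read 9.45, 10.11, 9.67, 9.48 and 9.21 in RAS-ON, 8.10 and 7.93 at 48 h and 7.40 at both 60 h arrays. It fell by 1.88 ± 0.15 (SE; limma adjusted p = 5.12e-06). Ccnd2 and Cdk4 fell by 0.65 and 0.50, and Ccnd3 rose by 0.37.

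Metabolic genes fell in several pathways. Glycolysis had a median of -0.52, with 11 of 17 genes (64.7%) lower and 3 (17.6%) higher. Pgam1, Tpi1 and Pkm, enzymes of the lower and middle steps, fell by 1.23 ± 0.07, 1.16 ± 0.10 and 1.09 ± 0.18 (SE), and the glucose transporter Slc2a1 fell by 0.95. The risers were the alternative transporter Slc2a3 (1.05), the muscle-type phosphofructokinase Pfkm (0.95) and the hexokinase Hk1 (0.48). Of 18 cholesterol synthesis genes 9 (50%) fell and 9 did not pass, the fallers including Fdps (-0.99 ± 0.07, SE), Cyp51 (-0.91 ± 0.10) and the feedback regulator Insig1 (-0.86 ± 0.12). The changes of Fdps and Cyp51 were -0.58 and -0.47 as means of their probe sets. In the list for MYC output and ribosome production 14 of 28 genes (50%) fell and 3 (10.7%) rose, the falls numbering 9 without 48 h replicate 2 and 7 without 60 h replicate 1. Pes1 and Bop1, which mature the large ribosomal subunit, fell by 0.60 ± 0.09 and 0.58 ± 0.12 (SE). The Pes1 change was -0.29 as the mean of its probe sets and the Bop1 change -0.33 against RAS-ON replicates 4 and 5. The risers were Mthfd2, an enzyme of mitochondrial folate metabolism that ATF4 also induces (0.78 ± 0.10), Odc1 (0.52) and Ppat (0.33). Of 26 oxidative phosphorylation genes 9 (34.6%) fell, by at most 0.48, and 17 did not pass. That count dropped to 2 without 48 h replicate 2 or 60 h replicate 1, to 4 without 60 h replicate 2 or RAS-ON replicate 5 and against RAS-ON replicates 1 to 3, and to 5 without RAS-ON replicate 1, 2 or 4. Sdhc, the member with the largest fall, overlapped between the groups and lost its call in 8 of 21 alternatives. The summed marker intensities given above for other cell types differed between the same groups, and the part of such cells in these falls was not tested.

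Stress genes separated into groups that rose and groups that fell. ATF4 is a transcription factor made when translation initiation is slowed, for instance by a shortage of amino acids, and it induces amino acid transporters and synthetic enzymes through a CARE site, a composite element that C/EBP and ATF proteins bind. The list of ATF4 stress response and amino acid supply had a median of 0.35, and 14 of its 26 measured genes (53.8%) rose while 4 (15.4%) fell. The promoters of the 2 members with a match that changed most are shown over the 300 bases that end just inside the transcript, from RefSeq (GRCm38.p6). Capitals mark a match to TGATGNAAN on either strand, where N is any base.
Asns: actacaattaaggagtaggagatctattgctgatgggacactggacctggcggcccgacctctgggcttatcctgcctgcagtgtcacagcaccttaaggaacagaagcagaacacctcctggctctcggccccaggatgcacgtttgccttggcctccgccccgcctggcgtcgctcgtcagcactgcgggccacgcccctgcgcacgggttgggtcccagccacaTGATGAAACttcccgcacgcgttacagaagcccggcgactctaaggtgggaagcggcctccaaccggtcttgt
Trib3: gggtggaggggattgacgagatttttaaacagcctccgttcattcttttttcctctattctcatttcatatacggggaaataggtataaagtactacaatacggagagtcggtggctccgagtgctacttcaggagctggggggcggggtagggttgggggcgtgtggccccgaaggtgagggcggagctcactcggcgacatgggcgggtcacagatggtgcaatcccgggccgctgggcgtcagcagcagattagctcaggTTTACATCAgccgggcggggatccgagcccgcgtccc
The Asns window is chr6:7693160-7693459 and the Trib3 window chr2:152344011-152344310, both on the minus strand of the chromosome. In the Trib3 promoter the match lies on the strand opposite to the one printed. Of 23 members with a promoter window, 7 held a match, as did 4.50% of 27025 genes, or 3.95% of 32851 windows. A match describes these letters and is not evidence of binding. The list was made up of ATF4 response genes, so this share describes the list and not these arrays. Asns, asparagine synthetase, read 10.60, 10.59, 10.26, 10.36 and 10.48 in RAS-ON, 11.96 and 12.07 at 48 h and 11.92 and 11.93 at 60 h. The groups were more than 1 unit apart, and Asns rose by 1.51 ± 0.08 (SE; limma adjusted p = 5.36e-07). Trib3, a pseudokinase that restrains AKT and ATF4, rose by 1.37 ± 0.14 (SE), and Ddit3 (CHOP), Chac1, Ppp1r15a and Atf5 rose by 0.97, 0.95, 0.93 and 0.88. Cth, which makes cysteine from cystathionine and is no member of the list, rose by 2.20 ± 0.16 (SE). The 4 fallers were Cebpb, a transcription factor of macrophages and granulocytes (-1.17 ± 0.10, SE), the serine synthesis enzymes Phgdh (-0.60) and Psat1 (-0.54), and Wars (-0.29).

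Chaperones of the endoplasmic reticulum went the other way. Of 20 measured 10 (50%) fell and 1 rose, Dnajb9, with a median of -0.34. The largest falls were Edem1, which targets misfolded glycoproteins for degradation (-1.16 ± 0.07, SE), Sdf2l1 (-0.92 ± 0.12) and Creld2 (-0.84 ± 0.15), while Hspa5, the chief chaperone of the compartment, had a change of -0.19 that did not pass. Heat shock proteins of the cytosol and mitochondria moved both ways: 5 of 15 (33.3%) rose and 3 (20%) fell. The risers were Hsph1, Dnajb1 (0.80 ± 0.09, SE), Hspa1a, Dnaja1 and Hspe1, and their number was 1 without 48 h replicate 2 or 60 h replicate 1, 2 without RAS-ON replicate 1, 3 against RAS-ON replicates 1 to 3 and 9 against replicates 4 and 5. Hsph1 (0.84 ± 0.27, SE; adjusted p = 0.0334) lost its call without RAS-ON replicate 1 or 4 or any early array, with adjusted p between 0.0608 and 0.115, and its change was 0.43 against RAS-ON replicates 1 to 3 and 1.46 against replicates 4 and 5. Hspa4 fell by 0.59 with its brightest probe set, and the mean of its 4 probe sets changed by 0.14 (adjusted p = 0.497).

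Interferon response genes were higher at both early times. Type I interferons act through a transcription factor complex that binds the interferon-stimulated response element (ISRE). Of 24 measured members 17 (70.8%) rose and 7 did not pass, with a median of 0.69, which was 0.54 against RAS-ON replicates 1 to 3 and 0.89 against replicates 4 and 5. The array medians lay between 0.33 and 0.92 early and between -0.21 and 0.12 in RAS-ON. The promoters of Rsad2 and Ifit1, the 2 members with a match that changed most, are shown over the same positions. Capitals mark matches, on either strand, to a pair of GAAA separated by any 2 bases, of which Rsad2 has 1 and Ifit1 has 2.
Rsad2: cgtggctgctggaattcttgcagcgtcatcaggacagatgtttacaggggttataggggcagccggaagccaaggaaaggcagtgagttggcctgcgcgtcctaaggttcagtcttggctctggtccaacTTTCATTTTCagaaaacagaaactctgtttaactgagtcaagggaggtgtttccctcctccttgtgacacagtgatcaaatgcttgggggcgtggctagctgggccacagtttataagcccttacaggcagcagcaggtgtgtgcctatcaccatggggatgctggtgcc
Ifit1: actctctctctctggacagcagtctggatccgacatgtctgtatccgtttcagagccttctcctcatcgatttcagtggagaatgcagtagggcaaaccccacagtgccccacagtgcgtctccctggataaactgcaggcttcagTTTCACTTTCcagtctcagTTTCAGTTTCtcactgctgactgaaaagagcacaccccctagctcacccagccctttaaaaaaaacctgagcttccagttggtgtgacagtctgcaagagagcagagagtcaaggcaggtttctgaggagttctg
The Rsad2 window is chr12:26456403-26456702 on the minus strand and the Ifit1 window chr19:34640639-34640938 on the plus strand of GRCm38.p6, from RefSeq. All 3 matches read on the strand opposite to the one printed. Of 17 members with a window 10 held a match, against 3.99% of 27025 genes, or 3.44% of 32851 windows. The list was made up of interferon response genes, so this share describes the list and not these arrays. Genes that rose and genes that did not pass were found both with a match, such as Rsad2 and Stat2, and without one, such as Oasl2 and Ifit2. A match is not evidence of binding here either. Rsad2, which encodes the antiviral enzyme viperin, read 11.35, 11.31, 11.19, 11.51 and 11.34 in RAS-ON, 13.41 and 13.53 at 48 h and 13.54 and 13.18 at 60 h. No early value came within 1.5 units of a RAS-ON value, and Rsad2 rose by 2.07 ± 0.09 (SE; limma adjusted p = 1.36e-07), 4.21-fold. Ifit1, which sequesters viral RNA, rose by 1.54 ± 0.18 (SE; limma adjusted p = 8.57e-05). Oasl2 read 7.13, 7.72, 7.57, 6.18 and 5.84 in RAS-ON, 9.40 and 9.69 at 48 h and 9.25 and 8.46 at 60 h. It rose by 2.31 ± 0.37 (SE) over RAS-ON arrays that themselves spanned almost 2 units. Rtp4 and the deISGylase Usp18 rose by 2.00 ± 0.22 (SE; 1.29 as the mean of its probe sets) and 1.79, and the transcription factors Irf7 and Irf9 by 1.33 and 0.91. Mx1, Mx2 and Cxcl10 had changes of 0.01, 0.13 and 0.17 that did not pass.

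Genes that FOXO factors induce when PI3K signaling is low rose more often than they fell. Over 23 FOXO targets and PI3K-responsive genes the median was 0.29, and 13 (56.5%) rose and 1 (4.35%) fell. Without 60 h replicate 1 the rises numbered 8. Gadd45a, a growth arrest gene, read 9.36, 9.22, 9.21, 9.49 and 9.38 in RAS-ON, 10.87 and 10.83 at 48 h and 11.02 and 10.92 at 60 h. Both groups were tight and 1.58 ± 0.07 (SE; limma adjusted p = 2.05e-07) apart. Foxo3 itself rose by 1.14 ± 0.07 (SE), or 0.75 as the mean of its 3 probe sets, and Foxo4 and Foxo1 rose by 0.64 and 0.45, with Bcl6 (0.86) and catalase, Cat (0.83). Pik3ip1, an inhibitor of PI3K, fell by 1.03 ± 0.33 (SE; adjusted p = 0.0354) over RAS-ON values of 7.67 to 9.53; the change was -0.57 (adjusted p = 0.0774) against RAS-ON replicates 1 to 3 and -1.72 against replicates 4 and 5, and the call was also lost without RAS-ON replicate 1 or 5 or any early array (adjusted p between 0.07 and 0.118). The p53 targets showed no shared direction: of 18 measured, 5 (27.8%) rose and 2 (11.1%) fell, and 3 rose without 48 h replicate 1 or 2, 60 h replicate 2 or RAS-ON replicate 1 and against RAS-ON replicates 4 and 5. Btg2 rose as above, while Cdkn1a, which encodes p21 and is induced by both p53 and ERK, fell by 0.58 ± 0.16 (SE; adjusted p = 0.0182); that call did not hold without 48 h replicate 2 (adjusted p = 0.0864) or 60 h replicate 1 (adjusted p = 0.0819) and against RAS-ON replicates 4 and 5 (-0.28, adjusted p = 0.185, where replicates 1 to 3 gave -0.77).

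The BCL2 family, which sets the threshold for mitochondrial cell death, changed on both its sides. Of 14 measured members 5 (35.7%) fell and 3 (21.4%) rose. Bcl2, which blocks cell death, read 10.25, 10.34, 10.45, 10.07 and 10.15 in RAS-ON, 8.81 and 8.87 at 48 h and 8.74 and 8.54 at 60 h. It fell by 1.51 ± 0.09 (SE; limma adjusted p = 7.9e-07), 2.86-fold, with no overlap. The pro-death members Bak1, Bid, Pmaip1 and Bad fell by 1.10 ± 0.16 (SE), 0.88 ± 0.08, 0.56 ± 0.11 and 0.25. The protective Bcl2l1 rose by 0.41, and so did the pro-death Bcl2l11 (BIM), which ERK marks for degradation, by 0.37, and Bmf by 0.50. Mcl1, the other main protective member, had a change of 0.04 that did not pass.

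The early arrays were then set against the 6 later RAS-OFF arrays, in a fit of all 15 arrays and without RAS-ON in the contrast. This comparison and the one with RAS-ON both use the 4 early arrays, so their values are not independent. Later arrays were higher in 749 genes (4.12% of 18193) and lower in 1372 (7.54%), 2121 (11.7%) in all, but only 2 were higher and 6 lower by at least 1 unit. Without 48 h replicate 1, 60 h replicate 1 and 60 h replicate 2, respectively, 361, 497 and 379 genes were higher, and without 48 h replicate 1 or 60 h replicate 2, 744 or 813 were lower. RAS-OFF 96 h replicate 1 had a Gapdh 3-prime minus 5-prime difference of 1.22, far from the 0.10 to 0.35 of the others. Leaving it out kept both counts within 1.5 times.

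Replication and mitosis genes set the early arrays apart from the later ones. The counts below stand beside the 4.12% of all genes that were higher later. Of 34 replication genes 23 were higher later and 11 did not pass, with a median difference of 0.28, and of 27 mitosis genes 22 were higher and 5 did not pass, with a median of 0.34. The mitosis count was 11 without 48 h replicate 1 and 13 without 60 h replicate 2. Tyms, the thymidylate synthase, was higher by 0.73 and Cenpf, of the kinetochore, by 0.58. Of 16 erythroid genes 7 were higher still, among them Epb42 (0.54), as were 5 of 15 haem genes, a count that was 2 without 48 h replicate 1, 3 without 60 h replicate 2 and 8 with array weights or the replicate block.

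**Figure D3:**
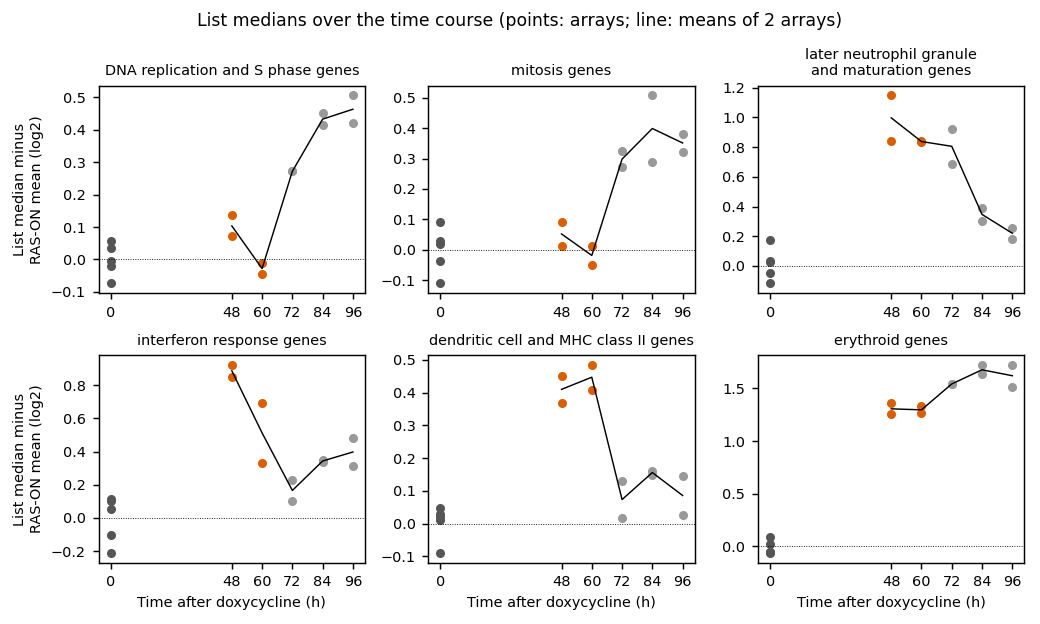
List medians of log2 intensity minus the RAS-ON mean (y axis, log2 units) against hours after doxycycline (x axis), 1 point per array, with a line through the means of the 2 arrays at each RAS-OFF time. RAS-ON arrays are dark grey, the early arrays at 48 and 60 h orange and the later arrays light grey; later neutrophil genes had a median difference of -0.37 and replication genes of 0.28 between later and early arrays.

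Several lists whose members rose early held members that were lower later. Over all genes 7.54% were lower later and 4.12% higher, and the list counts stand beside these shares. Of 18 later neutrophil genes 12 were lower and 6 did not pass, with a median of -0.37, and the count was 4 without 48 h replicate 1 and 7 without 60 h replicate 2. Cxcr2 was lower by 0.77 ± 0.11 (SE; limma adjusted p = 0.000852), Mmp8 by 0.55 and Pglyrp1, an antibacterial granule protein, by 1.14. Dendritic cell and MHC class II genes were lower in 8 of 15, natural killer genes in 5 of 11 and interferon response genes in 8 of 24, with 1 of the last higher, Isg20. The natural killer count was 0 without 48 h replicate 2, 1 without 60 h replicate 1 and 3 without 48 h replicate 1, 72 h replicate 2 or 84 h replicate 2. The interferon count was 5 without 48 h replicate 2 and 3 without 60 h replicate 1, and 13 with array weights. Rsad2 had a difference of 0.09 that did not pass, and Rtp4 was lower by 0.72. Monocyte genes, already lower early, were lower still in 14 of 25, with a median of -0.39, and in 9 without 60 h replicate 1 or 2. Of 20 immediate early genes 7 were lower, including Klf4 and Jun, and of 17 glycolysis genes 7, including Pkm (-0.70) and Pgam1 (-0.39). The immediate early count was 3 without 48 h replicate 1 or 60 h replicate 2 and 4 without 60 h replicate 1, and the glycolysis count was 3 without 48 h replicate 1 or 60 h replicate 2 and 4 without 48 h replicate 2.

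**Figure D4:**
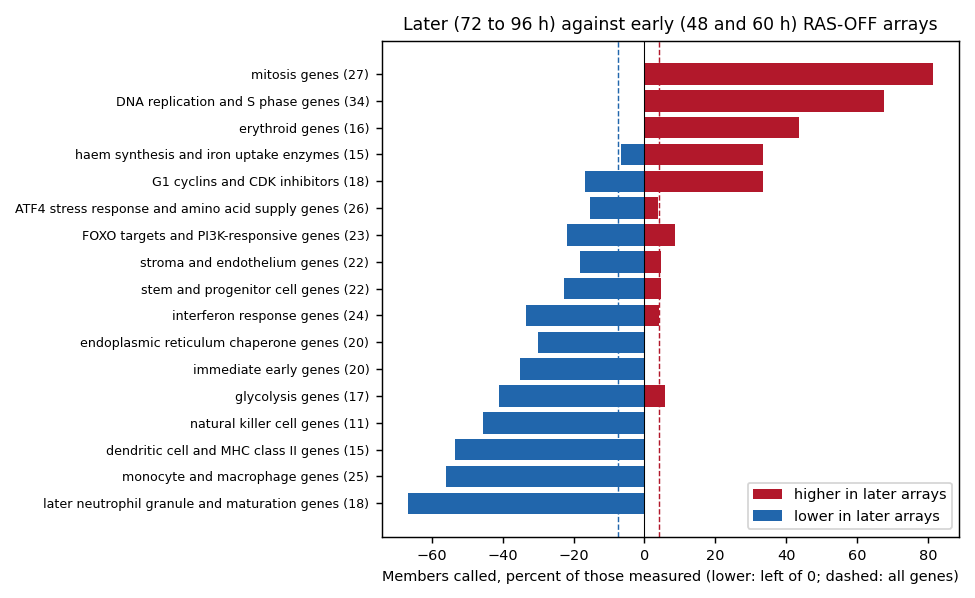
Share of the measured members of each list (in brackets) called higher (right of 0) or lower (left of 0) in the 72 to 96 h arrays than in the 48 and 60 h arrays, in percent, for lists with at least 5 calls. Dashed lines mark the shares over all genes, 4.12% higher and 7.54% lower; mitosis and replication genes lay far to the right and later neutrophil genes far to the left.

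Of the 19 ERK output genes 2 were lower later, Dusp6 (-0.55) and Phlda1 (-0.42), against 7.54% of all genes. Etv5 differed between later and early arrays by -0.12 (adjusted p = 0.586), Fos by -0.18 (adjusted p = 0.369) and Egr1 by -0.07 (adjusted p = 0.835). These differences did not pass for Etv5, Fos and Egr1, which does not show that they were equal. The largest rises from early to later arrays were Slc6a20a, a proline transporter (1.16), Aldh1a7 (1.03), Ddx4 (0.99), the tachykinin Tac2 (0.98), St6galnac3 (0.96) and the fatty acid desaturase Scd1 (0.89). Aldh1a7 and Ddx4 lay below the median of every one of the 9 arrays. The largest falls were Trgv4 (-1.24), Cth (-1.15), Pglyrp1 (-1.14), Hspa1b, an inducible heat shock protein (-1.06), Slfn1 (-1.06) and Cysltr1, a leukotriene receptor (-1.02). Of these 12 genes, Slc6a20a, Ddx4, Tac2, St6galnac3, Trgv4, Cth and Slfn1 had also risen early against RAS-ON, while Aldh1a7, Scd1, Pglyrp1, Hspa1b and Cysltr1 did not pass in that comparison.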

How the data were processed

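RNA was extracted, amplified and hybridised to Affymetrix mouse genome arrays, per the labels' protocols. The authors processed the scans with RMA, per the submitters' processing notes (version not given in the sources used here), and deposited a table of linear intensities, of which log2 was taken. Of 45101 probe sets, 34945 named 1 gene, 932 several, 9160 none and 64 were controls; 34741 matched RefSeq gene identifiers. The probe set brightest over the 15 arrays stood for each of 18193 genes, 9010 of which had more than 1. RMA shrinks differences of dim probe sets and sets the arrays to a common distribution, so a shift of all genes cannot be seen.

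The comparison of 4 early with 5 RAS-ON arrays was fitted with limma 3.58.1 in R 4.3.3 (lmFit, contrasts.fit and eBayes, 1 mean per group, 6 residual degrees of freedom), and later against early arrays in a fit of all 15 (9 residual degrees of freedom). Benjamini-Hochberg adjustment ran across the 18193 genes, and an adjusted p-value below 0.05 was a call. Precision is limited by how few arrays there are. The code was tested on simulated data. Genes named are 11 measured of 13 fixed names, the 10 largest rises and falls that did not overlap, up to 3 called members of each list, and the 6 largest rises and falls between later and early arrays, 128 in all. The largest rises and falls passed over provisional symbols and symbols of C, D or E plus a digit. Other members were picked after their values were seen. The arrays, lists, markers and tests were chosen with earlier results of these data known. The arrays were treated as unpaired. Deviations from the group mean of arrays with the same number, 1 or 2, correlated between -0.24 and 0.18. With only 2 arrays in each RAS-OFF group, this cannot show whether the replicate numbers pair the arrays. Alternatives covered the fit, filter on dim genes, choice of probe set, centring, array weights, the replicate block, subsets of RAS-ON and leaving out each array. Promoter windows came from RefSeq (GRCm38.p6).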

Additional observations from a re-analysis of the deposited data

Results flagged for a closer look

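In the RAS-ON group, 2 of 128 genes tested had an array far from the other 4. Mmp8 was 10.63 in replicate 2 against 10.19 to 10.25 in the others, and Slc40a1 was 10.85 in replicate 1 against 11.11 to 11.18. Chance alone would single out about 1 gene in 20.

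Between later and early RAS-OFF arrays, 44 of the named genes differed in limma over all 15 arrays, 15 higher and 29 lower later. Values are log2 differences. The higher ones were Slc6a20a (1.16), Aldh1a7 (1.03), Ddx4 (0.99), Tac2 (0.98), St6galnac3 (0.96) and Scd1 (0.89), the erythroid and haem genes Epb42 (0.54), Abcb10 (0.35), Gata1 (0.32) and Add2 (0.30), the cell cycle genes Ccne2 (0.42), Nusap1 (0.39), E2f2 (0.33) and Ccne1 (0.28), and Foxo3 (0.42).

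The lower ones included the myeloid genes Pglyrp1 (-1.14), Ccl9 (-0.82), Cxcr2 (-0.77), Klf4 (-0.65), Cebpb (-0.58), Gfi1 (-0.58), Mmp8 (-0.55) and Gstm1 (-0.36). Lymphoid and dendritic genes among them were Trgv4 (-1.24), Slfn1 (-1.06), Klra17 (-0.89), Cd209a (-0.86), Cd3d (-0.56), Gzma (-0.55), the dim Cd2 (-0.42) and Tbx21 (-0.36). Signaling, survival and cell cycle genes were Cysltr1 (-1.02), Mef2c (-0.62), Cdkn2a (-0.58), Dusp6 (-0.55), Pmaip1 (-0.41), Bid (-0.33) and Rasgrp1 (-0.30). The rest were Cth (-1.15), Hspa1b (-1.06), Rtp4 (-0.72), Pkm (-0.70), Pgam1 (-0.39) and Edem1 (-0.25).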

How the results depend on the processing

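Early changes of the 128 named genes kept direction and side of the threshold in 2605 of 2673 combinations of gene and alternative; 37 lost the call (7 genes), 26 gained it (9 genes) and 5 turned direction (4 genes). Those 5 were Hoxa9 (0.06) and Meis1 (-0.01) with the replicate block, Meis1 against RAS-ON replicates 1 to 3 (-0.05), Hspa4 as the mean of all probe sets (0.14) and Prokr1 with the probe set brightest over the 9 arrays (-0.17); the cause was not tested. Later-minus-early differences kept their call in 889 of 962 combinations, and 73 lost it (22 of 44 genes). List medians moved by more than the RAS-ON spread in 59 of 544 combinations.

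With every probe set tested separately, which tests more features, 4530 probe sets were higher and 4869 lower early, 3522 higher at 48 h, 2918 higher at 60 h, and 1130 higher and 2245 lower later. With a change of at least 1 log2 unit required, 360 were higher and 156 lower early, 411 and 145 at 48 h, 326 and 174 at 60 h, and 2 and 6 later. With the replicate block, 2715 were higher and 3320 lower early, and 993 and 1807 later.

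Leaving out each array in turn gave 2040 to 2717 higher and 1924 to 3370 lower early, 1373 to 2372 and 819 to 2349 at 48 h, 954 to 1958 and 806 to 2515 at 60 h, 0 to 0 and 0 to 1 between 60 and 48 h, and 361 to 825 and 744 to 1513 later. The lone array left at a time was assumed to vary like the others.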
